A study of Homo sapiens with 12 samples.

Results

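The genes described here are the 7 subunit genes of the transcription factor AP-1 (FOS, FOSB, FOSL1, FOSL2, JUN, JUNB and JUND) and EGR1, 8 of the 22411 genes that could be named on the arrays. They were chosen by gene symbol, and each was measured by 1 transcript cluster. All 8 lay above the limit of log2 signal (4.54) used for testing, which kept 14940 genes. The 12 Affymetrix arrays held RNA of MDA-MB-231, a human cell line of mesenchymal character long established in culture as a model of triple-negative breast cancer. There were 4 groups of 3 arrays, all transfected for 48 h at 50 nM: a mimic of the reference form of miR-183-5p (the archetype), a mimic of the isomiR shifted by -2 nucleotides at the 5′ and the 3′ end (minus2), a mimic of the isomiR shifted by 2 nucleotides at each end (plus2), and the oligonucleotide sold as Negative Control #1 (control). A mimic is a synthetic RNA added from outside, so the cells' own level of the microRNA was not what varied. Whether the replicate arrays stand for separate cultures is not stated in the labels, and the p-values therefore rest on a spread among samples that may be technical.

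AP-1 is a dimer of leucine zipper proteins, made of a FOS family member with a JUN family member or of JUN family members alone, and it drives growth, migration and protease genes. In triple-negative breast cancer cells FRA-1, the product of FOSL1, is known as a prominent FOS family protein and for its part in invasion. EGR1 is a zinc finger factor of the same immediate-early response, switched on through serum response factor (SRF) at CArG boxes in its promoter. MicroRNAs lower transcripts that pair with their seed, nucleotides 2 to 8 from the 5′ end.

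The mimics are shown because the shift of the ends gives each one a different seed, written here in capitals. The isomiRs are written as DNA, as in the labels, and the archetype is the RefSeq mature sequence (GRCh38.p14, chr7:129774967-129774988, minus strand).
archetype: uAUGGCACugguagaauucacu
minus2: tGTATGGCactggtagaattca
plus2: tGGCACTGgtagaattcactgt
Each mimic is 22 nt long. Minus2 and plus2 share a run of 18 nt, and each shares 20 nt with the archetype. Seed matches in the transcripts of the 8 genes were not analysed here.

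FOSL1 and FOSL2 fell with every mimic, EGR1 rose with the archetype and plus2 and fell with minus2, and the other 5 genes did not pass the test in any of the 6 comparisons. FOSL1 was lowest with plus2, at 0.374 of its control signal, whereas FOSL2 was lowest with minus2, at 0.532 of control. Calls are from limma, fitted to all 12 arrays with Benjamini-Hochberg adjustment over the 14940 genes tested and a threshold of 0.05. By the moderated F test for any difference among the 4 groups, 3 of the 8 genes were called (37.5%), beside 51.7% of all genes tested. Each mimic gave 3 calls among the 8 against control, beside 24.6% of all genes with the archetype, 29.4% with minus2 and 33.6% with the plus2 mimic, so the number called was close to what the whole table showed. The median log2 change of the 8 genes was -0.07 with the archetype, -0.28 with minus2 and -0.02 with the plus2 mimic, against 0.01, 0.01 and 0.00 over all genes tested in the same order of mimics. In a bulk sample such as these, fewer cells expressing a gene and less RNA of it per cell cannot be told apart.

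Pearson's r between replicate arrays was 0.997 to 0.999, taken across genes, which are no independent replicates. The SD of a gene between replicates had its largest median with plus2 (0.0827 log2 units) and its smallest with minus2 (0.0576), and plus2 replicate 3 had the lowest array weight in limma (0.377). Markers of the line (VIM, CD44, KRT18 and EGFR) lay at or above the percentile 94.6 of mean signal among genes. EGFR changed by 0.58 with the archetype, -0.60 with minus2 and 0.29 with the plus2 mimic, and CD44 by -0.38, -0.45 and -0.38 in the same order, all called. KRT18 rose by 0.31, 0.34 and 0.14, and VIM stood at -0.11, -0.11 and -0.21, of which the last was called. The summed linear signal of these 4 genes was 4.099e+04 to 4.304e+04 with the archetype, 3.894e+04 to 3.916e+04 with minus2 and 3.848e+04 to 4.069e+04 with plus2, and 4.491e+04 to 4.641e+04 in control. Of 14 markers of luminal, white blood, fibroblast and endothelial cells, 7 lay below the limit for testing, namely ESR1, PGR, PTPRC, PDGFRA, DCN, PECAM1 and CDH5. The luminal gene CDH1 rose by 0.42 with the archetype and 1.14 with plus2. The luminal gene GATA3 rose by 0.19 and 0.22 with the same mimics. The white blood cell gene CD14 rose by 0.22 with minus2 and 0.28 with plus2, and the fibroblast gene PDGFRB by 0.33 with plus2. The other tested markers, EPCAM (luminal), CD3E (white blood cells) and COL1A1 (fibroblasts), were called with no mimic. EPCAM stood at 0.14, 0.06 and 0.04 with the archetype, minus2 and plus2. The summed linear signal of the 5 luminal markers was 545 to 583.6 with the archetype, 515 to 535.6 with minus2 and 531 to 592.3 with plus2, and 479.3 to 540 in control. For the 3 white blood cell markers it was 74.43 to 77.76 with the archetype, 78.01 to 80.85 with minus2 and 79.17 to 80.34 with plus2, and 66.48 to 76.89 in control. For the 4 fibroblast markers it was 105.5 to 116.5, 113.2 to 115.7 and 121.5 to 124.6 with the same mimics, and 107.5 to 112.4 in control. The 2 endothelial markers summed to 31.48 to 36.89 with the archetype, 35.39 to 36.46 with minus2 and 36.11 to 42.62 with plus2, and 36.92 to 38.98 in control. The part of these markers in the results below was not tested.

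FOSL1 encodes FRA-1, a FOS family subunit that lacks the C-terminal activation domain of FOS. Its log2 signal was 9.77, 9.55 and 9.63 on the archetype arrays, 9.60, 9.55 and 9.61 on the minus2 arrays and 8.70, 8.49 and 8.63 on the plus2 arrays, against 10.10, 9.95 and 10.03 on the control arrays. All 9 mimic arrays lay below all 3 control arrays, and the 3 plus2 arrays lay below all the others. FOSL1 changed by -0.38 ± 0.07 (SE, log2) with the archetype (adjusted p = 0.0015, limma), by -0.44 ± 0.07 with minus2 (adjusted p = 4.2e-04) and by -1.42 ± 0.07 with plus2 (adjusted p = 5.0e-08). The last is a signal 2.67-fold lower than in control, and it ranked 22 among the falls of the 14940 genes in that comparison, against 535 for the fall with the archetype and 473 for that with minus2.

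Between mimics, FOSL1 was lower with plus2 than with the archetype by 1.04 ± 0.07 on the log2 scale, a difference that ranked 20 among the falls of that comparison, and lower with plus2 than with minus2 by 0.98 ± 0.07. The adjusted p was 1.1e-06 and 5.0e-07 for these comparisons (limma). Minus2 and the archetype did not differ beyond their spread, with a difference of -0.06 ± 0.07 (minus2 minus archetype, adjusted p = 0.58) and a 95% interval of -0.21 to 0.08. The order of levels was thus control highest, then the archetype and minus2 without a called difference between them, then plus2.

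FOSL2, which encodes the related subunit FRA-2, had log2 signals of 8.98, 8.75 and 8.89 with the archetype, 8.49, 8.44 and 8.62 with minus2 and 9.05, 8.93 and 9.01 with plus2, against 9.56, 9.36 and 9.37 in control. Every mimic array lay below every control array, and the minus2 arrays lay below all the others. The log2 change was -0.56 ± 0.07 with the archetype (adjusted p = 1.9e-04), -0.91 ± 0.07 with minus2 (adjusted p = 4.1e-06) and -0.44 ± 0.07 with plus2 (adjusted p = 7.6e-04, limma). The fall with minus2 left 1.88-fold less signal than in control and ranked 82 among all falls of that comparison.

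Set against each other, the mimics differed in FOSL2 as well. Minus2 was lower than the archetype by 0.35 ± 0.07 log2 units (adjusted p = 0.0045), and plus2 was higher than minus2 by 0.48 ± 0.07 (adjusted p = 3.2e-04, limma). Plus2 and the archetype overlapped, at a difference of 0.12 ± 0.07 (plus2 minus archetype, adjusted p = 0.25) with a 95% interval of -0.04 to 0.29. FOSL2 was therefore highest in control, then with plus2 and the archetype without a called difference between those mimics, and lowest with minus2.

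**Figure D1:**
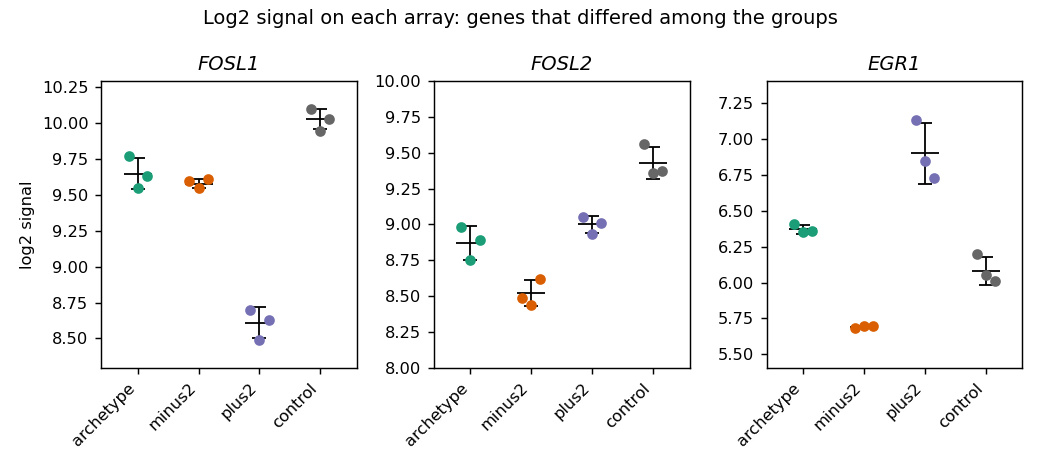
Log2 signal (vertical axis) of FOSL1, FOSL2 and EGR1 on each array (points) in the 4 groups (horizontal axis), with the group mean and SD of 3 arrays as bars; every panel spans the same range of log2 units. FOSL1 is lowest on the plus2 arrays (8.49 to 8.70), FOSL2 on the minus2 arrays (8.44 to 8.62), and EGR1 is highest with plus2 and lowest with minus2.

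The 2 FOS-like genes thus fell to different extents with plus2 and minus2. Within each array, the log2 difference FOSL1 minus FOSL2, counted from its mean in control, was 0.19, 0.21 and 0.14 with the archetype, 0.51, 0.51 and 0.39 with minus2 and -0.95, -1.03 and -0.97 with plus2, against -0.06, -0.01 and 0.06 in control. It was below control on every plus2 array and above control on the arrays of the other mimics. Plus2 and minus2 differed in this measure by -1.45, with no overlap, and the exact permutation test over 3 arrays against 3 gave p = 0.1 (two-sided), the smallest value that this design allows. Each mimic against control also gave p = 0.1 by the exact permutation test.

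FOS and FOSB encode the subunits that are made within minutes of a growth stimulus and are otherwise scarce. FOS had log2 signals between 4.46 and 4.58 with the archetype, 4.49 and 4.62 with minus2 and 4.53 and 4.73 with plus2, against 4.58 to 4.61 in control. These values straddle the limit for testing, so FOS was barely above the signal at which genes were left out. Its largest change against control was -0.06 ± 0.06 log2 units with the archetype (adjusted p = 0.52, 95% interval -0.19 to 0.07). FOSB lay between 4.89 and 5.11 with the archetype, 4.82 and 4.98 with minus2 and 4.84 and 4.98 with plus2, against 4.88 to 4.96 in control, and its groups overlapped throughout. Its changes were 0.05 ± 0.07, -0.00 ± 0.07 and -0.00 ± 0.07 for the archetype, minus2 and plus2, with adjusted p of 0.68 or more (limma). At such low signals an array compresses changes, and a real one may have gone undetected.

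JUN encodes c-Jun, the strongest activator of its family. It had log2 signals of 8.62, 8.11 and 8.36 with the archetype, 8.53, 8.16 and 8.43 with minus2 and 8.56, 8.46 and 8.46 with plus2, against 8.56, 8.46 and 8.55 in control. The 4 groups overlapped. Replicate 2 was the lowest array in every group, though in plus2 it equalled replicate 3 at the digits given. The change was -0.16 ± 0.12 log2 units with the archetype, -0.15 ± 0.12 with minus2 and -0.03 ± 0.12 with the plus2 mimic, with adjusted p of 0.4, 0.4 and 0.88. The 95% intervals reached from -0.41 to 0.10, from -0.41 to 0.11 and from -0.29 to 0.23.

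JUNB encodes a JUN family subunit that activates fewer targets and restrains c-Jun at some of them. Its log2 signal was 7.47, 6.96 and 7.27 with the archetype, 6.95, 6.73 and 6.71 with minus2 and 7.71, 6.65 and 7.51 with plus2, against 7.49, 7.10 and 7.33 in control. The 3 minus2 arrays lay below all control arrays, while plus2 replicate 2 stood well below the other plus2 arrays. The change with minus2 was -0.51 ± 0.23 (adjusted p = 0.13, 95% interval -1.01 to -0.01), and with the archetype and plus2 it was -0.07 ± 0.23 and -0.01 ± 0.23. The minus2 change passed when only the minus2 and control arrays were fitted (adjusted p = 0.011) and when plus2 replicate 2 was left out (adjusted p = 0.015), within a range of adjusted p from 0.011 to 0.29 over all settings. Without that array the difference between plus2 and minus2 was 0.82 (adjusted p = 0.0015), against 0.50 ± 0.23 with it (adjusted p = 0.11, and 0.0015 to 0.37 over all settings).

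JUND encodes the JUN subunit usually present in resting cells. It had log2 signals of 7.85, 7.69 and 7.29 with the archetype, 7.38, 7.03 and 7.28 with minus2 and 7.33, 7.08 and 7.51 with plus2, against 7.59, 7.27 and 7.32 in control, and all groups overlapped. Against control its difference was 0.22 ± 0.15 with the archetype, -0.16 ± 0.15 with minus2 and -0.09 ± 0.15 with the plus2 mimic (adjusted p of 0.36, 0.5 and 0.72). Archetype replicate 3 lay below the other archetype arrays. Without it, minus2 was lower than the archetype by 0.54 (adjusted p = 0.022) and plus2 was lower by 0.46 (adjusted p = 0.038), whereas with it the differences were -0.38 ± 0.15 (adjusted p = 0.1) and -0.30 ± 0.15 (adjusted p = 0.17, limma). Over all settings the adjusted p ran from 0.022 to 0.32 for minus2 against the archetype and from 0.038 to 0.47 for plus2 against the archetype.

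**Figure D2:**
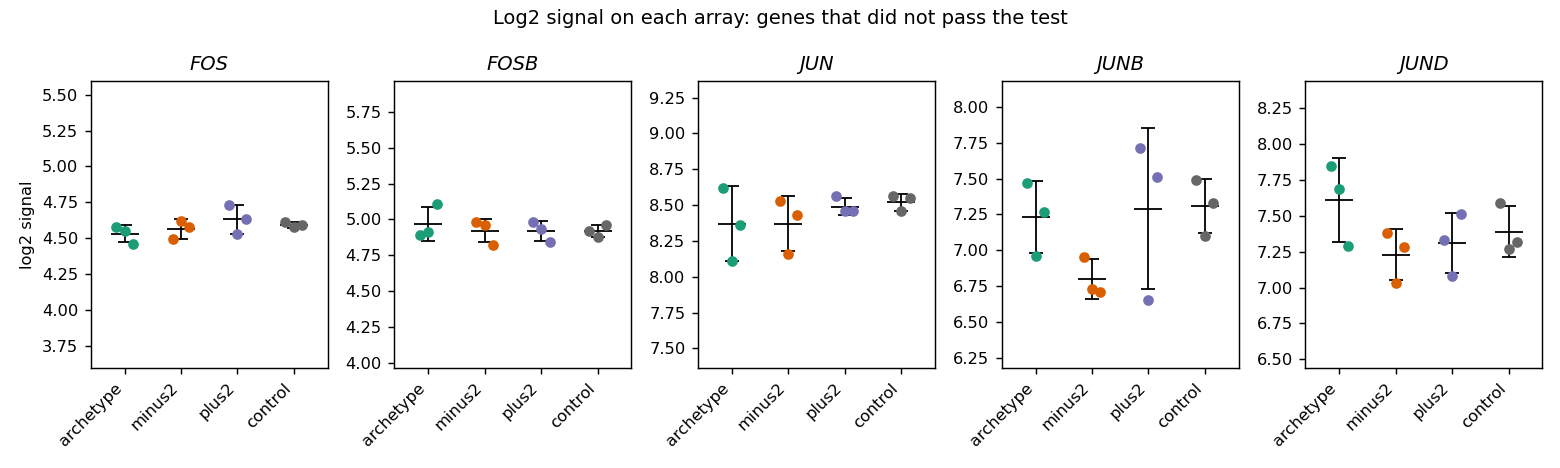
Log2 signal (vertical axis) of FOS, FOSB, JUN, JUNB and JUND on each array (points) in the 4 groups (horizontal axis), with the group mean and SD of 3 arrays as bars; every panel spans the same range of log2 units. The groups overlap except that JUNB on the minus2 arrays (6.71 to 6.95) lies below the control arrays and, by a narrow margin, below the archetype arrays, and plus2 has 1 low JUNB array at 6.65.

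EGR1 had log2 signals of 6.41, 6.35 and 6.36 with the archetype, 5.68, 5.70 and 5.70 with minus2 and 7.13, 6.85 and 6.73 with plus2, against 6.20, 6.05 and 6.01 in control. No group overlapped another: plus2 was highest, then the archetype, then control, and minus2 was lowest. The change was 0.82 ± 0.09 log2 units with plus2 (adjusted p = 1.9e-05), a signal 1.76-fold above control that ranked 127 among all rises of that comparison. With minus2 it was -0.39 ± 0.09 (adjusted p = 0.0046), and with the archetype 0.29 ± 0.09 (adjusted p = 0.028, limma). The archetype call was lost on leaving out control replicate 2 or 3 or any 1 of the 3 archetype arrays, with log2 changes of 0.25 to 0.30 and adjusted p between 0.059 and 0.099, where all settings together gave 0.0027 to 0.099.

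All 3 comparisons between mimics were called for EGR1. Plus2 was higher than minus2 by 1.21 ± 0.09 log2 units, or 2.32-fold (adjusted p = 6.1e-07), which ranked 52 among the rises of that comparison. Plus2 was also higher than the archetype by 0.53 ± 0.09 (adjusted p = 7.2e-04), and minus2 was lower than the archetype by 0.68 ± 0.09 (adjusted p = 1.2e-04, limma). Counted from control within each array, the log2 difference EGR1 minus FOSL1 was 0.58, 0.74 and 0.68 with the archetype, 0.02, 0.09 and 0.04 with minus2 and 2.37, 2.30 and 2.04 with plus2, against 0.04, 0.04 and -0.08 in control. The exact permutation test gave p = 0.1 for plus2 and for the archetype against control, the smallest value possible, and p = 0.5 for minus2 (two-sided).

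**Figure D3:**
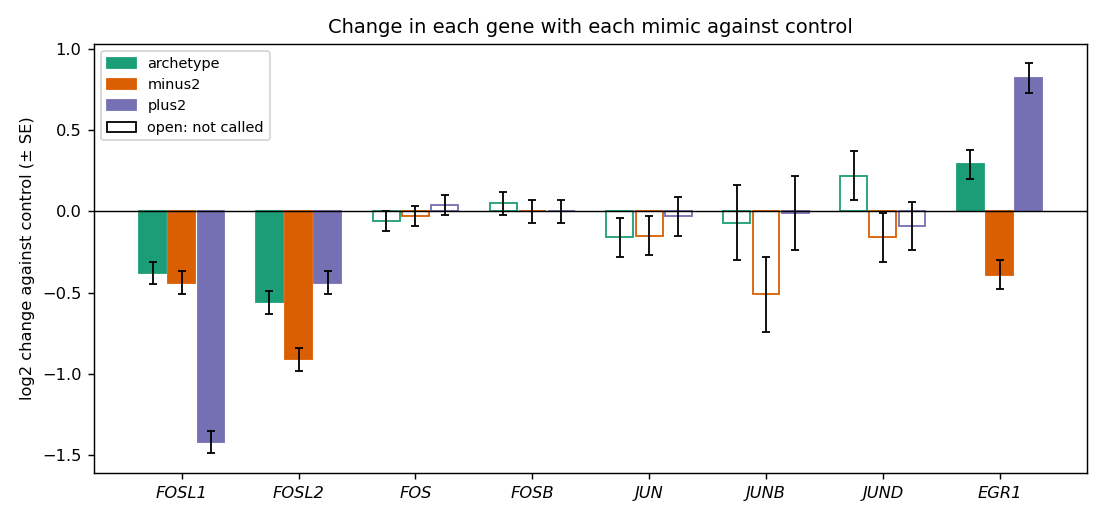
Log2 change against control (vertical axis, bars with SE from limma) of the 8 genes (horizontal axis) with the archetype, minus2 and plus2; filled bars passed the adjusted p threshold and open bars did not. FOSL1 reaches -1.42 with plus2 and FOSL2 -0.91 with minus2, and EGR1 is at 0.82 with plus2 and -0.39 with minus2.

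Over the comparisons between mimics, minus2 against the archetype called 2 of the 8 genes, both lower (24.3% of all genes tested were called, 12.4% higher and 11.8% lower). Plus2 against the archetype called 2, 1 in each direction (28.9% of all genes, 13.0% higher and 15.9% lower). Plus2 against minus2 called 3 (38.7% of all genes), a share close to that background. FOSL1, FOSL2 and EGR1 were all called between plus2 and minus2, with FOSL1 lower and the others higher in plus2.

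**Figure D4:**
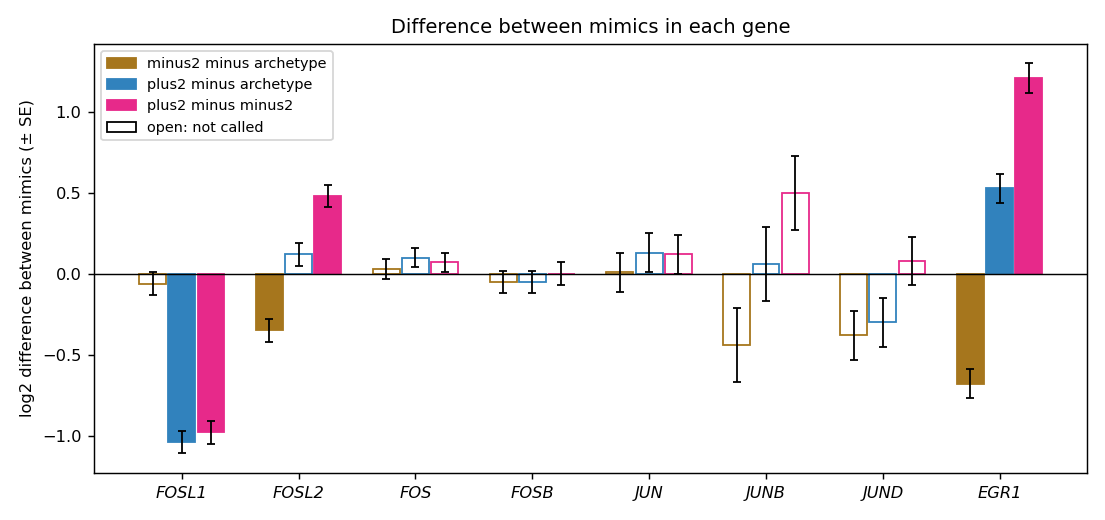
Log2 difference between mimics (vertical axis, bars with SE from limma) for the 8 genes (horizontal axis), with each difference named in the legend as first minus second; filled bars passed the adjusted p threshold. FOSL1 differs between plus2 and both other mimics, and EGR1 in all 3 comparisons, up to 1.21 for plus2 minus minus2.

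The promoter of EGR1 is shown because its signal moved both ways and its control region is well known. The 250 bases before the start of EGR1 (RefSeq, GRCh38.p14, chr5:138465229-138465478, plus strand) read as follows, with CArG boxes in capitals.
EGR1: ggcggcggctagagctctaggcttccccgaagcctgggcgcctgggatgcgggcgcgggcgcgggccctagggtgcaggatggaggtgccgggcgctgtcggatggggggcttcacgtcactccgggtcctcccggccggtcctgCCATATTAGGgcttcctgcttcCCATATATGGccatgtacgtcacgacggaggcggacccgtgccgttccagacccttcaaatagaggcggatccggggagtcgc
The boxes begin 105 and 83 bases before the start. A promoter was in the RefSeq table for 7 of the 8 genes, all but FOSL1. The same 250 bases were searched on both strands for CArG boxes, for the AP-1 sites TGACTCA, TGACGTCA and TGACATCA, and for the EGR1 sites GCGGGGGCG and GCGTGGGCG. A CArG box is in 1.16% of the 35116 promoters of the table, and among the 7 genes EGR1 alone had one in this window. JUN had TGACATCA beginning 67 bases before its start, as have 2.37% of promoters somewhere in the window, and JUND had TGACGTCA beginning 200 bases before its start, as have 1.65%. TGACTCA (4.2% of promoters), GCGGGGGCG (4.72%) and GCGTGGGCG (0.72%) were in none of the 7 windows. A match is a stretch of letters and not a measured binding site.

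SRF, which binds CArG boxes, is in the list of SRF, its cofactors and upstream kinases. SRF had log2 signals of 8.63, 8.57 and 8.73 with the archetype, 9.24, 9.31 and 9.20 with minus2 and 8.11, 8.30 and 8.34 with plus2, against 9.04, 8.85 and 8.84 in control. It changed by -0.27 ± 0.07 with the archetype (adjusted p = 0.022), 0.34 ± 0.07 with minus2 (adjusted p = 0.0047) and -0.66 ± 0.07 with plus2 (adjusted p = 3.7e-05, limma). Beside these stand changes of EGR1 of 0.29, -0.39 and 0.82, and all of them share the same control arrays. Between plus2 and minus2, SRF was 2-fold lower in plus2 (adjusted p = 9.6e-07, limma) and EGR1 2.32-fold higher. A link between the level of SRF and that of EGR1 was not tested.

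In that list of 19 genes 15 could be tested. With the archetype 3 rose and 6 fell, with minus2 4 rose and 4 fell, and with plus2 4 rose and 5 fell, beside 14.3% of all genes rising and 10.3% falling with the archetype, 17.5% and 11.9% with minus2, and 17.4% and 16.2% with plus2. MAP2K1, which encodes the kinase MEK1 that activates ERK, fell by 0.56 ± 0.04 with the archetype and by 0.92 ± 0.04 with plus2, and its change with minus2 was 0.07 ± 0.04 (adjusted p = 0.24). MAP2K4, a kinase that activates JNK, rose with every mimic, by 0.58 ± 0.05, 0.37 ± 0.05 and 0.85 ± 0.05 log2 units for the archetype, minus2 and plus2. ELK3, an ETS factor that works with SRF, changed by -0.25 ± 0.06, -0.38 ± 0.06 and -0.81 ± 0.06 in the same order, a fall each time. RPS6KA3, which encodes the ERK-activated kinase RSK2, fell by 0.76 ± 0.05 with the archetype and by 0.47 ± 0.05 with minus2, and stood at 0.08 ± 0.05 with plus2 (adjusted p = 0.24). RPS6KA5, which encodes a kinase of histone H3 and CREB, fell with the archetype (-0.33 ± 0.08) and rose with plus2 (0.40 ± 0.08), with -0.14 ± 0.08 for minus2 (adjusted p = 0.26). The SRF cofactor MRTFB fell with minus2 (-0.42 ± 0.05), and stood at 0.13 ± 0.05 with the archetype and 0.12 ± 0.05 with plus2 (adjusted p of 0.096 and 0.1). Another SRF cofactor, MRTFA, fell with the archetype (-0.20 ± 0.05) and plus2 (-0.39 ± 0.05). Its change with minus2 was 0.02 ± 0.05 (adjusted p = 0.88). Adjusted p was 0.018 or less for the called changes named in these sentences on kinases and cofactors (limma).

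Of 16 other leucine zipper factors, including AP-1 partners, 12 were tested. With the archetype 1 rose and 2 fell, with minus2 1 fell and with plus2 2 rose and 1 fell, against 24.6%, 29.4% and 33.6% of all genes called with those mimics. ATF2, which pairs with c-Jun, fell with each mimic, by 0.48 ± 0.05, 0.33 ± 0.05 and 0.27 ± 0.05 for the archetype, minus2 and plus2. ATF3, a stress-induced repressor, rose by 0.24 ± 0.07 with the archetype and 0.35 ± 0.07 with plus2, and stood at -0.12 ± 0.07 with minus2 (adjusted p = 0.26). CREM stood at -0.18, 0.03 and -0.09 for the archetype, minus2 and plus2, of which the first was called. ATF4, the factor of the integrated stress response, stood at 0.04, 0.01 and 0.14 in the same order, of which the last was called. The median log2 change of the 12 was 0.00, 0.01 and -0.01 for the 3 mimics in the same order.

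The EGR family and its NAB corepressors gave 2 tested genes of 5, NAB1 and NAB2, and neither was called against control, with adjusted p between 0.11 and 0.95 (limma). Of 6 genes for turnover of JUN and FOS proteins 5 were tested. With the archetype 1 rose, with minus2 1 rose and 1 fell and with plus2 2 rose, beside the same shares of all genes. The log2 differences from control with the archetype, minus2 and plus2 were 0.17, -0.15 and 0.02 for the kinase gene GSK3B, where the first was called. The ubiquitin ligase gene ITCH stood at 0.10, -0.21 and 0.20, of which the fall with minus2 and the rise with plus2 were called. COP1 stood at -0.02, 0.15 and -0.08, with the minus2 value called, and DET1 at 0.03, -0.02 and 0.28, with the plus2 value called.

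Of 19 other immediate-early genes 18 were tested, of which 5 rose and 2 fell with the archetype, 4 rose and 2 fell with minus2 and 3 rose and 2 fell with plus2. Over all genes 24.6%, 29.4% and 33.6% were called with those mimics. CCN1, a matrix protein gene, rose by 0.98 ± 0.07 with the archetype, 0.42 ± 0.07 with minus2 and 0.78 ± 0.07 with the plus2 mimic. SGK1, a kinase gene, rose by 0.56 ± 0.06, 0.35 ± 0.06 and 0.27 ± 0.06. The log2 differences of the other genes from control are given for the archetype, minus2 and plus2 in turn. IER3, a survival gene, stood at -0.39, 0.00 and 0.00, and only the first was called. IER5 stood at 0.38, 0.29 and 0.13, with calls for the archetype and minus2. KLF6, a zinc finger factor, stood at -0.13, -0.66 and 0.12, and the matrix protein gene CCN2 at -0.30, 0.52 and -0.09, each with a call for minus2 alone. GADD45B, a stress response gene, stood at 0.34, -0.08 and 0.44, with calls for the archetype and plus2. IER2 stood at -0.16, -0.16 and -0.31, with a call for plus2. The list medians were -0.00, -0.05 and 0.01 for the archetype, minus2 and plus2, close to those of all genes.

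Genes reported as AP-1 targets were 22, of which 15 were tested. With the archetype 3 rose and 8 fell, with minus2 1 rose and 7 fell, and with plus2 2 rose and 10 fell. Over all genes 14.3% rose and 10.3% fell with the archetype, 17.5% and 11.9% with minus2, and 17.4% and 16.2% with plus2. The list medians were -0.17, -0.14 and -0.25 in that order, against 0.01, 0.01 and 0.00 over all genes. This list was chosen with earlier results of these data known, and whether AP-1 acted on any of its genes here was not tested. PLAUR, the urokinase receptor, fell with each mimic, by 0.70 ± 0.07, 0.51 ± 0.07 and 0.67 ± 0.07 log2 units, and so did ZEB1, a repressor of epithelial genes, by 0.53 ± 0.04, 0.25 ± 0.04 and 0.57 ± 0.04. The other large changes are given by mimic. HBEGF, a ligand of the EGF receptor, fell by 1.32 ± 0.06 with the archetype and by 1.65 ± 0.06 with plus2, and stood at 0.15 ± 0.06 with minus2 (adjusted p = 0.08). CXCL8, which encodes interleukin-8, changed by 0.31 ± 0.06, -1.94 ± 0.06 and 2.02 ± 0.06 for the archetype, minus2 and plus2, all called, and IL6 by 0.43 ± 0.08, -0.57 ± 0.08 and 0.58 ± 0.08. The comparisons share their control arrays. VEGFA, a growth factor for vessels, fell with all mimics, by 0.78 ± 0.04, 0.14 ± 0.04 and 0.51 ± 0.04. PLAU, urokinase, fell with minus2 (-0.49 ± 0.07) and plus2 (-0.36 ± 0.07), and stood at -0.09 ± 0.07 with the archetype (adjusted p = 0.37).

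Genes reported as EGR1 targets were 10, of which 9 were tested, with 2 rises and 3 falls for the archetype, 2 rises and 4 falls for minus2 and 2 rises and 1 fall for plus2. The share of all genes called was 24.6%, 29.4% and 33.6% with those mimics. THBS1, an inhibitor of vessel growth, rose 2.15-fold with the archetype, 2.2-fold with minus2 and 2.83-fold with plus2, and F3, tissue factor, rose by 0.56 ± 0.06, 0.41 ± 0.06 and 0.61 ± 0.06 log2 units. The membrane protease gene MMP14 changed by -0.61 ± 0.05, -0.76 ± 0.05 and -0.61 ± 0.05. FN1, fibronectin, fell by 0.46 ± 0.06 with the archetype and by 0.38 ± 0.06 with minus2, and stood at 0.13 ± 0.06 with plus2 (adjusted p = 0.11). TGFB1, a growth factor gene, fell by 0.34 ± 0.09 with the archetype and by 0.39 ± 0.09 with minus2, and stood at -0.18 ± 0.09 with plus2 (adjusted p = 0.16). THBS1, F3 and MMP14 each kept 1 direction over the 3 mimics. PDGFA stood at 0.02, -0.30 and 0.02 for the archetype, minus2 and plus2, with a call for minus2 alone. EGR1 fell with minus2 and rose with the other mimics. Between plus2 and minus2, 5 of the 9 (THBS1, F3, MMP14, FN1 and PDGFA) were higher in plus2 and none was lower. Over all genes 17.8% were higher and 20.9% lower. Against control, however, THBS1 and F3 rose with minus2 too and MMP14 fell with plus2 too, while FN1 and PDGFA fell with minus2. In the same comparison of mimics, 2 of the 15 tested AP-1 targets were higher in plus2 and 5 lower. Of the 15 tested genes in the SRF list, 5 were higher and 6 lower. Whether EGR1 acted on any of these genes here was not tested.

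**Figure D5:**
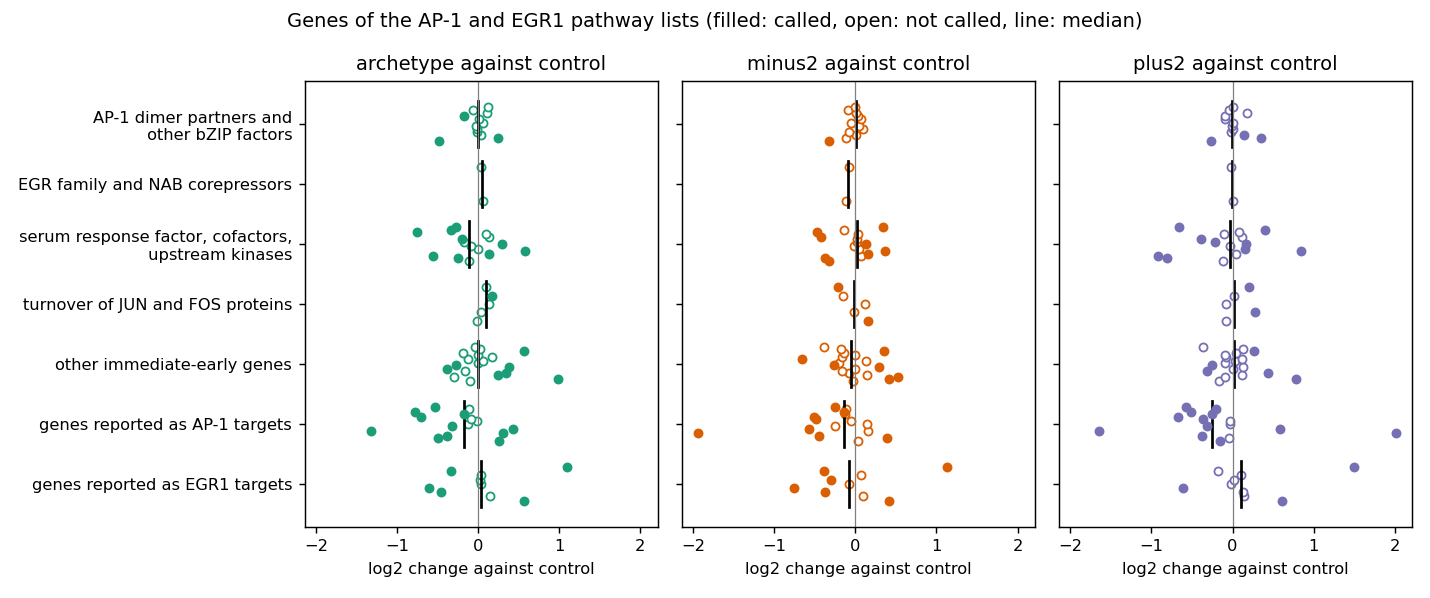
Log2 change against control (horizontal axis) of each tested gene in 7 lists around AP-1 and EGR1 (rows), with a panel for each mimic; filled points passed the adjusted p threshold, open points did not, and the black line is the list's median. Most points lie near 0, and the list of reported AP-1 targets has its median below 0 in each panel (-0.17, -0.14 and -0.25). The lists were chosen with earlier results of these data known and were not tested as sets.

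Among the 14940 tested genes, loci with a LOC, LINC, MIR, SNOR, SCARNA or RNU symbol, or with an antisense or similar suffix, were passed over. Of the rest, those with the pattern most like each called member were found. The measure was the root mean square difference between the 4 group means, each gene centred on its own mean. For FOSL1 the nearest genes were LITAF (difference 0.099 log2 units), MTDH (0.102) and TMEM161A (0.119). LITAF changed by -0.21, -0.48 and -1.23 with the archetype, minus2 and plus2, and MTDH by -0.45, -0.24 and -1.34. For FOSL2 the nearest were HIF1AN (0.032), CD82 (0.043) and KNL1 (0.052), with HIF1AN at -0.64, -0.92 and -0.50. For EGR1 they were RHOQ (0.049), NMU (0.080) and PRLR (0.083), with RHOQ at 0.18, -0.49 and 0.69. The nearest genes of FOSL1 were thus farther from it than those of FOSL2 and EGR1 from theirs. The measure is not scaled to the size of a gene's change, so these distances do not show how unusual a pattern is. FOSL1 and FOSL2 lay 0.546 apart from each other by the same measure, and FOSL1 and EGR1 0.905.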

How the data were processed

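The authors deposited log2 signals for each array, made with tools named in the submitters' processing notes as Affymetrix Expression Console 1.4.1 and RMA, without settings. The log2 scale was inferred from the values (1.79 to 19.9, array medians 4.73 to 4.80). RMA includes quantile normalisation, and 100 ng of RNA was used for every array per the labels, so changes shared by all transcripts of a cell cannot be seen. Of 67528 transcript clusters, 23781 carried 1 gene symbol, and symbols were updated through RefSeq (22407 of 22411 genes matched). Where a gene had several clusters, that with the highest mean was kept, and genes in the upper 2/3 of mean signal were tested. Group means were fitted with limma 3.58.1 in R 4.3.3 (8 residual degrees of freedom). The fitting code was run on simulated data with few changed genes and independent noise between arrays. That setting is unlike these data, so the run is a check of the code and not of the calls. No pair of arrays was identical. The precision is limited by 3 arrays per group. Per list and comparison with control, up to 4 called genes with the largest changes were named, plus the 3 genes nearest in pattern to each called member. Where a list gene fell under that rule in 1 comparison, its values in the others were given too. PDGFA and MRTFA were named in addition. The 8 genes, the lists and the tests were chosen with earlier results of these data known. Lists were not tested as sets. The alternatives were no filter or a stricter one, other scalings, smaller fits, weights, a variance trend, a replicate block and leaving out arrays.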

Additional observations from a re-analysis of the deposited data

How the results depend on the processing

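The 6 comparisons of the 8 genes were recomputed under 8 other settings, which gave 372 log2 changes, of which 368 kept their side of the threshold and 4, all of JUNB, newly passed it. Those were minus2 against control (-0.51) and minus2 against the archetype (-0.44) when only the compared groups were fitted, and minus2 against control (-0.51) and plus2 against minus2 (0.50) with a replicate block. Leaving out each array in turn gave 576 changes, of which 566 kept their side, 5 (the archetype's change of EGR1) lost their call and 5 (JUNB and JUND) gained one. No called change turned its sign, and 34 uncalled ones of at most 0.31 did. Over all settings FOSL1 with plus2 ranged from -1.47 to -1.36, FOSL2 with minus2 from -0.96 to -0.85 and EGR1 with plus2 from 0.71 to 0.91. FOS and FOSB fell out under the stricter filter. Correlations of the deviations ran from -0.045 to 0.269 between same-numbered arrays of different groups, and from -0.272 to 0.162 between arrays of unlike number. Same-numbered arrays thus deviated together in part. What the numbers mark is not stated in the labels, and the main fit did not take them as pairs. With the replicate block, members called went to 4 for minus2 against control, for plus2 against minus2 and for the F test, in place of 3, and stayed at 3 for the archetype and for plus2 against control and at 2 for the other comparisons. Signals near the limit for testing (FOS, FOSB) bound what could be detected.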

Other observations

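For FOSL1, FOSL2 and JUN, replicate 2 was the lowest array in all 4 groups. Over all tested genes this held for 795 of 14940 (5.32%), against 212 (1.42%) for replicate 1 and 274 (1.83%) for replicate 3.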
